A study of Homo sapiens with 11 samples.

Results

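The mitochondrial ribosomal proteins are described here by the messages of 76 nuclear genes among the 19775 genes measured. The members are DAP3 and every gene whose symbol is MRPL or MRPS followed by a number and at most 1 letter. By symbol, 48 belong to the large subunit and 28 to the small subunit. The reference gene table holds 78 such symbols, and MRPL53 and MRPS24 were not measured on their own because their probe sets are listed with several genes. KGD4, whose older symbol is MRPS36, is listed under its new symbol and is not counted as a member. MRPS18A and MRPS30 were counted with the small subunit by symbol, although the structure of the human mitochondrial ribosome places both proteins in the large subunit.

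The cells were Reh, an established B-cell precursor leukaemia line with the ETV6-RUNX1 fusion, and all of them, controls included, had been infected with virus to express miR-125b stably. They received precursor oligos of miR-99a at 66 µM (3 arrays), of miR-100 at 66 µM (3 arrays), of both at 33 µM each (3 arrays), or a scrambled control oligo at 66 µM (2 arrays). Cells were transfected again after 72 h and harvested 48 h after the second transfection. Replicates are numbered 1 to 3 in the treated groups and 1 and 2 in control, and the labels do not say whether they were separate cultures, so p-values measure only the spread between these arrays. Values are the authors' log2 expression on Affymetrix whole-genome arrays. Among markers of B-cell precursors, 10 of 11 measured lay at or above the median gene, against 3 of 15 measured markers of other lineages.

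Mitochondrial ribosomes translate the few proteins that mitochondrial DNA encodes, all of them core subunits of the respiratory chain and ATP synthase. Their RNA comes from mitochondrial DNA, but every one of their proteins is encoded in the nucleus, translated in the cytoplasm and imported. Some of these proteins have counterparts in bacterial ribosomes, and others were added in mitochondria. Among the measured members, 30 of the large and 17 of the small subunit have a bacterial counterpart, and 18 and 11 do not.

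The oligos that define the comparisons are related in sequence, and the mature strands, from RefSeq on GRCh38.p14, are shown 5′ to 3′ with the seed, bases 2 to 8, in capitals. MiR-99a-5p lies at chr21:16539101-16539122 on the plus strand, miR-100-5p at chr11:122152275-122152296 on the minus strand, and a copy of miR-125b-5p at chr11:122099809-122099830 on the minus strand.
miR-99a-5p: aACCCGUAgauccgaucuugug
miR-100-5p: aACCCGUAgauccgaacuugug
miR-125b-5p: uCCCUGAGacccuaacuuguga
MiR-99a-5p and miR-100-5p share their seed and differ by U16A, counted from 1 at the 5′ end with the base of miR-99a first. The seed of miR-125b-5p, which all cells carried, is another one.

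All members gave signals above the median gene. Their means over the 11 arrays ran from 7.36 for MRPL44, at percentile 63.4 of all genes, to 11.46 for MRPL3, at percentile 97.7, and the median gene lay at 6.4. In the large subunit, MRPL3, MRPL51 and MRPL57 gave the highest signals and MRPL44, MRPL38 and MRPL2 the lowest. In the small subunit, MRPS15, MRPS21 and MRPS18C gave the highest and MRPS2, MRPS18A and MRPS17 the lowest. Probe sets differ in affinity, so these signals do not rank the genes by amount.

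On single arrays, the median member lay between 0.19 below and 0.14 above its mean over the 11 arrays, depending on array and subunit. The large subunit was lowest in replicate 3 of miR-99a (median -0.19), replicate 3 of the combination (-0.15) and replicate 2 of miR-100 (-0.12), and highest in control replicate 2 (0.14). The small subunit was lowest in replicate 2 of miR-100 (-0.13) and highest in control replicate 2 (0.12). The median of all genes stayed between -0.02 and 0.01. The arrays of a treatment therefore did not lie together, and the 2 control arrays differed from each other as well.

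**Figure D1:**
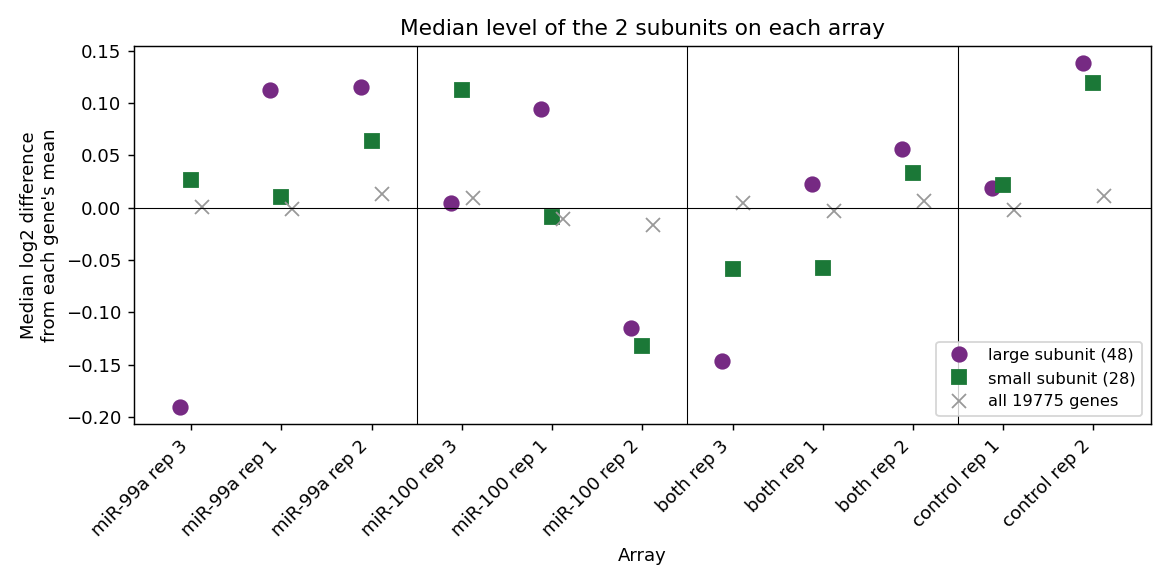
Median over the 48 large-subunit genes (circles), the 28 small-subunit genes (squares) and all 19775 genes (crosses) of the log2 value minus the gene's mean over 11 arrays, for each array. The large subunit is lowest, at -0.19, in replicate 3 of miR-99a and highest, at 0.14, in control replicate 2.

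The first question was whether miR-99a, miR-100 or both changed these messages. The main limma fit had no term for the replicate number. There no member passed an adjusted p of 0.05 against control with miR-99a, miR-100, the combination or the mean of all 9 treated arrays. In each of these comparisons 0.0% of all genes passed. Without adjustment, limma gave a p under 0.05 for 0, 2, 6 and 4 of the 76 members in these comparisons, against 1.00, 1.54, 3.66 and 2.47% of all genes. Most members nevertheless had treated means a little below control, 67 of 76 with miR-99a, 63 with miR-100, 63 with the combination and 67 with any oligo. Over all genes 53.0, 54.0, 51.8 and 52.3% lay below 0, and over the 9888 genes with at least the median level 62.5, 67.6, 65.3 and 66.1% did. These comparisons share the control arrays, so they are not independent.

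With any oligo, the median log2 difference was -0.10 for the large and -0.09 for the small subunit, where those 9888 genes had a median of -0.03. Members ran from -0.23 for MRPL48 to 0.09 for MRPL38, a protein without a bacterial counterpart. The arrays of treated and control cells did not overlap for 8 members, all of them lower in treated cells, beside 1.60% of all genes that were lower and 1.31% that were higher without overlap, or 2.48 and 0.576% of those 9888. With the single oligos and the combination, the members whose treated arrays all lay below both control arrays numbered 14, 11 and 24, beside 7.88, 6.19 and 11.4% of all genes and 9.02, 6.71 and 17.2% of those 9888. Those whose treated arrays all lay above numbered 1, 1 and 0, beside 7.55, 7.18 and 9.11% of all genes and 3.90, 2.65 and 3.96% of those 9888.

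The size of this shift rested on single arrays. For any oligo, the large-subunit median was -0.04 without control replicate 2 and -0.16 without control replicate 1. For miR-99a, it was 0.03 without replicate 3 of miR-99a and -0.15 without replicate 2 of miR-99a. Without the replicate 3 arrays, which have no control of the same number, the any-oligo median was -0.03 for the large and -0.12 for the small subunit. There 45 of 76 members lay below 0. After quantile normalization of the 11 arrays, the any-oligo medians were -0.04 and -0.02, with 53 members below 0.

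In the large subunit, MRPL3, MRPL48 and MRPL27 had the smallest unadjusted p with any oligo. MRPL3, a counterpart of bacterial L3 close to the peptidyl transferase centre, stood at 11.57, 11.42 and 11.36 in replicates 1 to 3 of miR-99a, 11.52, 11.22 and 11.39 of miR-100, and 11.50, 11.45 and 11.37 of the combination, against 11.67 and 11.64 in control. All 9 treated arrays lay below both control arrays, with a log2 difference of -0.23 ± 0.08 (SE), an unadjusted p of 0.0156 and an adjusted p of 1 by limma. MRPL48, which has no bacterial counterpart, stood at 9.18, 9.03 and 9.11 with miR-99a, 9.11, 8.88 and 9.22 with miR-100, and 9.02, 8.94 and 9.05 with the combination, against 9.28 and 9.31 in control. Here too the treated and control arrays did not overlap, and the difference was -0.23 ± 0.08 with an adjusted p of 1. MRPL27 averaged -0.21 ± 0.10.

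In the small subunit, MRPS22, a mitochondria-specific protein mutated in inherited respiratory chain disease, had the smallest p with any oligo. It stood at 9.57, 9.52 and 9.60 with miR-99a, 9.54, 9.28 and 9.69 with miR-100, and 9.45, 9.38 and 9.50 with the combination, against 9.71 and 9.69 in control. All treated arrays lay below control, the closest being replicate 3 of miR-100, and the difference was -0.20 ± 0.09 with an unadjusted p of 0.0447 and an adjusted p of 1. MRPS18A and MRPS23 followed at -0.14 ± 0.07 and -0.20 ± 0.12. On the other side, MRPS2 and MRPS34 stood at 0.07 ± 0.08 and 0.01 ± 0.11, so that neither differed by more than its error.

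**Figure D2:**
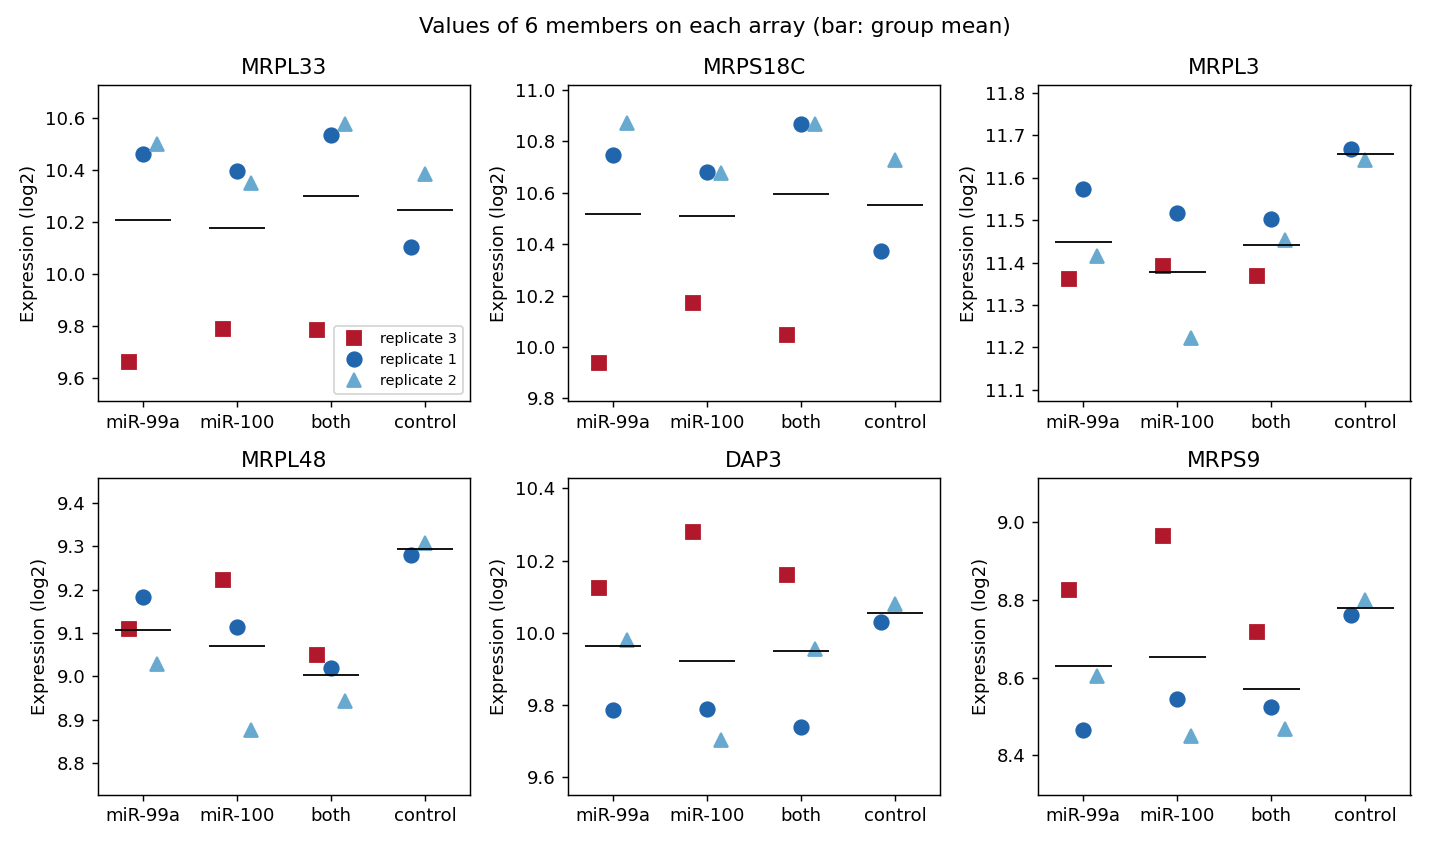
Log2 expression of MRPL33, MRPS18C, MRPL3, MRPL48, DAP3 and MRPS9 on each of the 11 arrays, by group, with squares for replicate 3, circles for replicate 1, triangles for replicate 2 and a bar at the group mean. In MRPL33 and MRPS18C the replicate 3 arrays lie below all others, in MRPL3 and MRPL48 all treated arrays lie below both controls, and in DAP3 replicate 3 is the highest array of each treatment.

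Adding a term for replicate 3 to the fit brought 2 members past the threshold for the combination, beside 2.24% of all genes. MRPL48 then stood at -0.32 ± 0.09 (adjusted p = 0.0469) and MRPS9 at -0.32 ± 0.09 (adjusted p = 0.0404). The term rests on the treated arrays alone, since control has no replicate 3. In the fit limited to replicates 1 and 2, no member passed for the combination, beside 1.47% of all genes, and MRPL48 and MRPS9 had adjusted p-values of 0.0758 and 0.0795.

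Set against the control array of the same number, the treated arrays gave subunit medians on both sides of 0 in replicate 1 and below 0 in replicate 2. In replicate 1, the large-subunit medians for miR-99a, miR-100 and the combination were 0.08, 0.09 and -0.08, and the small-subunit medians were -0.04, -0.07 and -0.13. In replicate 2, the medians in the same order were -0.02, -0.23 and -0.08 for the large and -0.02, -0.22 and -0.05 for the small subunit. All 3 treatments were below control for 34 members in replicate 1, beside 31.5% of all genes, and for 40 members in replicate 2, beside 28.4%. They were above control for 30 members in replicate 1, beside 27.7% of all genes, and for 5 in replicate 2, beside 22.2%. In both, 32 members (18 large, 14 small) were below control in all 6 pairs, beside 16.5% of all genes. Above it in all 6 were 5 (4 large, 1 small), beside 8.61%. These pairs share 2 control arrays, and the shares among genes with at least the median level were not counted.

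MiR-100 was next set against miR-99a, which differs from it by 1 base. No member passed, beside 0.0% of all genes, and the medians were -0.03 for the large and -0.02 for the small subunit. Below 0 lay 47 of 76 members, beside 54.6% of all genes and 63.0% of the 9888 genes with at least the median level. No member had an unadjusted p under 0.05 by limma, beside 0.981% of all genes, and none had groups that did not overlap, beside 2.25% lower and 2.42% higher over all genes and 0.728 and 0.243% over those with at least the median level. Leaving out 1 array moved the large-subunit median between -0.13 (without miR-99a replicate 3) and 0.04 (without miR-99a replicate 2), and the small-subunit median between -0.09 (without miR-100 replicate 3) and 0.04 (without miR-100 replicate 2). The member differences ran from -0.11 to 0.08, and MRPL4, with the smallest p of the large subunit, stood at -0.10 ± 0.09. In replicates 1 and 2 alone, 75 of 76 members were lower with miR-100, with a median of -0.11, yet no member passed, and 12539 of the 19775 genes lay below 0 there. Replicate 2 of miR-100 was the array on which the small subunit was lowest of all. Set against the average of the 2 single-oligo groups, at equal total dose, the combination gave medians of -0.01 and -0.03. There 46 members lay below 0, beside 51.5% of all genes and 59.4% of those with at least the median level. In that comparison 0 members passed, as did 0.0% of all genes. No member had an unadjusted p under 0.05 by limma, beside 2.28%, or groups without overlap, beside 0.612% lower and 0.981% higher over all genes and 0.233 and 0.243% over those with at least the median level. Its large-subunit median ran from -0.07 to 0.02 and its small-subunit median from -0.07 to -0.01 with 1 array left out, the extremes being without miR-99a replicate 3 and the combination's replicate 3, and without miR-100 replicates 2 and 3.

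Far larger differences ran along the replicate number. Within the 9 treated arrays, with treatment as a term, 53 of 76 members differed between replicate 3 and replicates 1 and 2, beside 29.3% of all genes and 54.7% of the 9888 genes with at least the median level. Of these, 33 were lower in replicate 3, beside 12.2% of all genes and 22.1% of those 9888, and 20 were higher, beside 17.1 and 32.6%. What the replicate number stands for is not given in the labels. In RNA from many cells, fewer cells of a type and less RNA per cell cannot be told apart.

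Without adjustment, 59 members had a p under 0.05 by limma, beside 35.9% of all genes. Of the 9888 genes with at least the median level, 6271 did. Below 0 lay 44 members, beside 49.7% of all genes and 41.2% of those 9888.

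The 2 subunits were divided in different proportions. In the large subunit, 22 members were lower in replicate 3, 9 were higher and 17 did not pass, with a median log2 difference of -0.13. In the small subunit, 11 were lower, 11 higher and 6 did not pass, with a median of 0.05, and the median of all genes was 0.00. Members with a bacterial counterpart split into 13 lower and 3 higher of 30 in the large subunit, and 8 lower and 5 higher of 17 in the small. The mitochondria-specific members split into 9 lower and 6 higher of 18, and 3 lower and 6 higher of 11. MRPL47, MRPL55 and MRPS28, which all passed, were counted with a bacterial counterpart after the values were seen. Over all genes 12.2% were lower and 17.1% higher, and over the 9888 genes with at least the median level 22.1 and 32.6%. No difference between subunits or between these sets of members was tested. Without miR-100 replicate 3, the medians were -0.22 for the large and -0.02 for the small subunit, and without miR-99a replicate 3 they were -0.05 and 0.09, so the sign of the small-subunit median rested on single arrays.

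**Figure D3:**
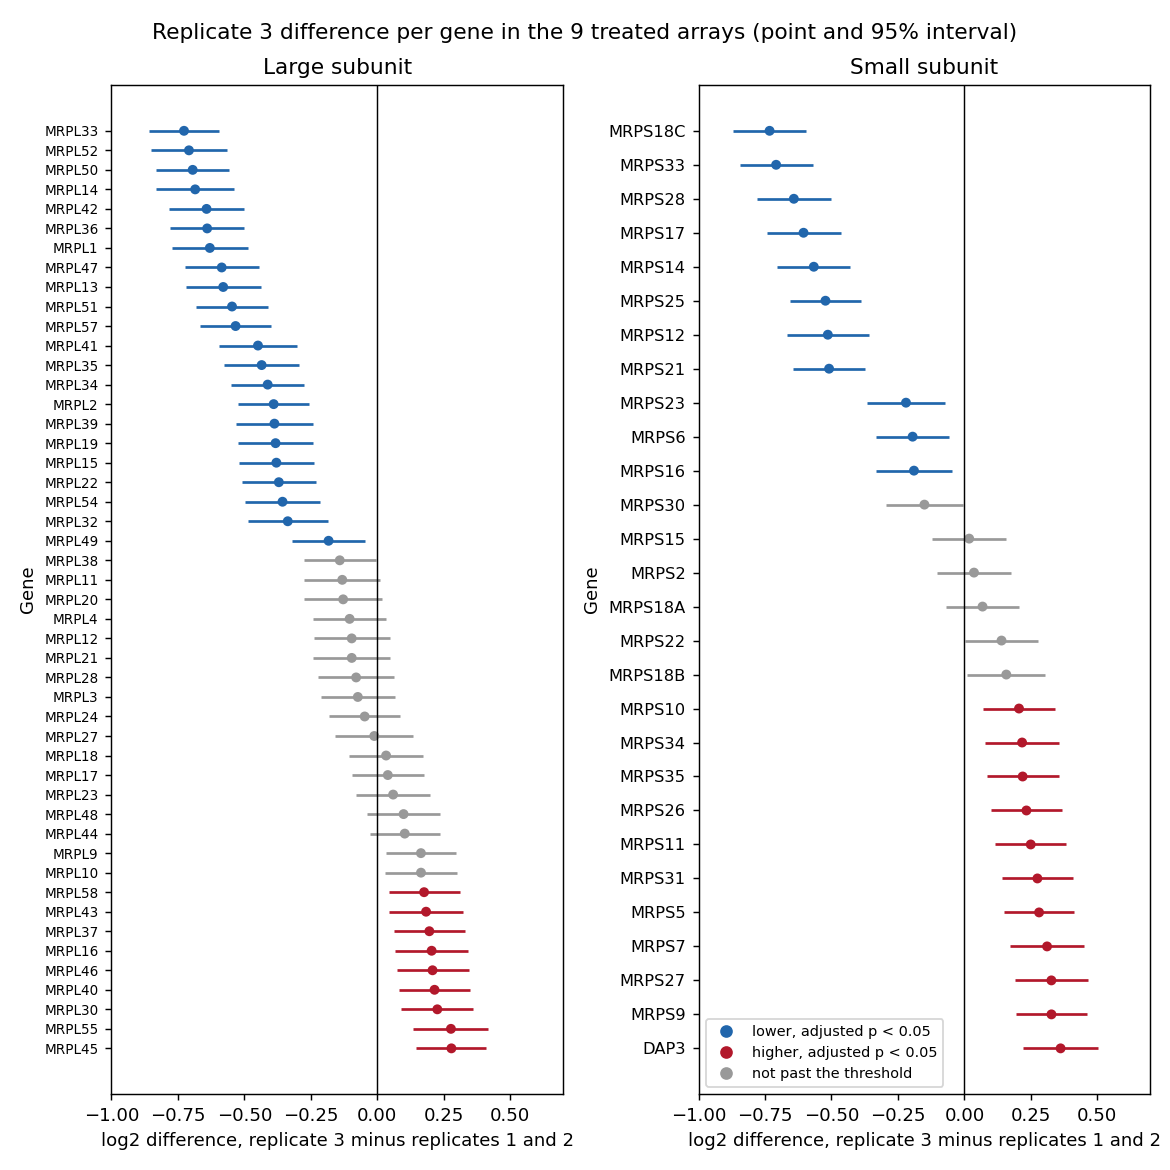
Log2 difference of replicate 3 minus replicates 1 and 2 in the 9 treated arrays for each member, by subunit, with its 95% interval. Blue marks the 33 members that were lower, red the 20 that were higher and grey the 23 that did not pass an adjusted p of 0.05, and the lower ones reach -0.73 while the higher ones reach 0.36.

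Among large-subunit members, MRPL33, the counterpart of bacterial L33, had the smallest p. It stood at 9.66, 9.79 and 9.79 in replicate 3 of miR-99a, miR-100 and the combination, against a lowest, median and highest value of 10.35, 10.48 and 10.58 in replicates 1 and 2, and control lay at 10.11 and 10.39. The replicate 3 arrays were the lowest of all 11, and the log2 difference was -0.73 ± 0.07 (adjusted p = 2.37e-12), a ratio of 0.604. MRPL52, a mitochondria-specific protein, stood at 10.01, 10.22 and 10.05, against 10.60, 10.81 and 10.93, with control at 10.50 and 10.78, a difference of -0.71 ± 0.07. MRPL50, also without a bacterial counterpart, stood at 8.89, 9.14 and 8.89, against 9.59, 9.68 and 9.74, with control at 9.35 and 9.72, a difference of -0.69 ± 0.07. For both, replicate 3 lay below every other array. MRPL14 and MRPL36, counterparts of bacterial L14 and L36, had differences of -0.68 ± 0.07 and -0.64 ± 0.07.

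In the small subunit, MRPS18C had the smallest p. It is 1 of the 3 human relatives of bacterial S18, and it stood at 9.94, 10.17 and 10.05 in replicate 3, against a lowest, median and highest value of 10.68, 10.81 and 10.87 in replicates 1 and 2, with control at 10.38 and 10.73. Replicate 3 lay below every other array, with a difference of -0.73 ± 0.07 (adjusted p = 5.47e-12) and a ratio of 0.602. The other relatives, MRPS18A at 0.07 (adjusted p = 0.55) and MRPS18B at 0.16 (adjusted p = 0.108), did not pass. MRPS33, which has no bacterial counterpart, stood at 8.05, 8.25 and 8.12 in replicate 3, against 8.68, 8.88 and 8.92, with control at 8.55 and 8.76, a difference of -0.71 ± 0.07. MRPS28, MRPS17 and MRPS14 had differences of -0.64 ± 0.07, -0.61 ± 0.07 and -0.57 ± 0.07, and MRPS17 and MRPS14 are counterparts of bacterial S17 and S14.

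The members that were higher in replicate 3 changed by less. DAP3, a GTP-binding protein of the small subunit first known as a mediator of cell death, stood at 10.12, 10.28 and 10.16 in replicate 3, against 9.70, 9.79 and 9.98 in replicates 1 and 2, with control at 10.03 and 10.08. Replicate 3 did not overlap with the other treated arrays, and the difference was 0.36 ± 0.07 (adjusted p = 4.41e-05), a ratio of 1.29. MRPS9, the counterpart of bacterial S9, stood at 8.82, 8.96 and 8.72, against 8.45, 8.50 and 8.60, with control at 8.76 and 8.80, a difference of 0.33 ± 0.07. For MRPS9 the control arrays lay within the range of replicate 3. MRPS27, a pentatricopeptide repeat protein that binds RNA, had a difference of 0.33 ± 0.07.

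In the large subunit, MRPL45, which lies at the exit of the peptide tunnel by the inner membrane, stood at 8.41, 8.43 and 8.42 in replicate 3, against 8.06, 8.13 and 8.23 in replicates 1 and 2, with control at 8.26 and 8.32. Replicate 3 was above every other array, with a difference of 0.28 ± 0.07 (adjusted p = 0.000631). MRPL55 and MRPL30 stood at 0.28 ± 0.07 and 0.23 ± 0.07. MRPL12, which also binds mitochondrial RNA polymerase, and MRPL3 did not pass, at -0.10 and -0.07.

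**Figure D4:**
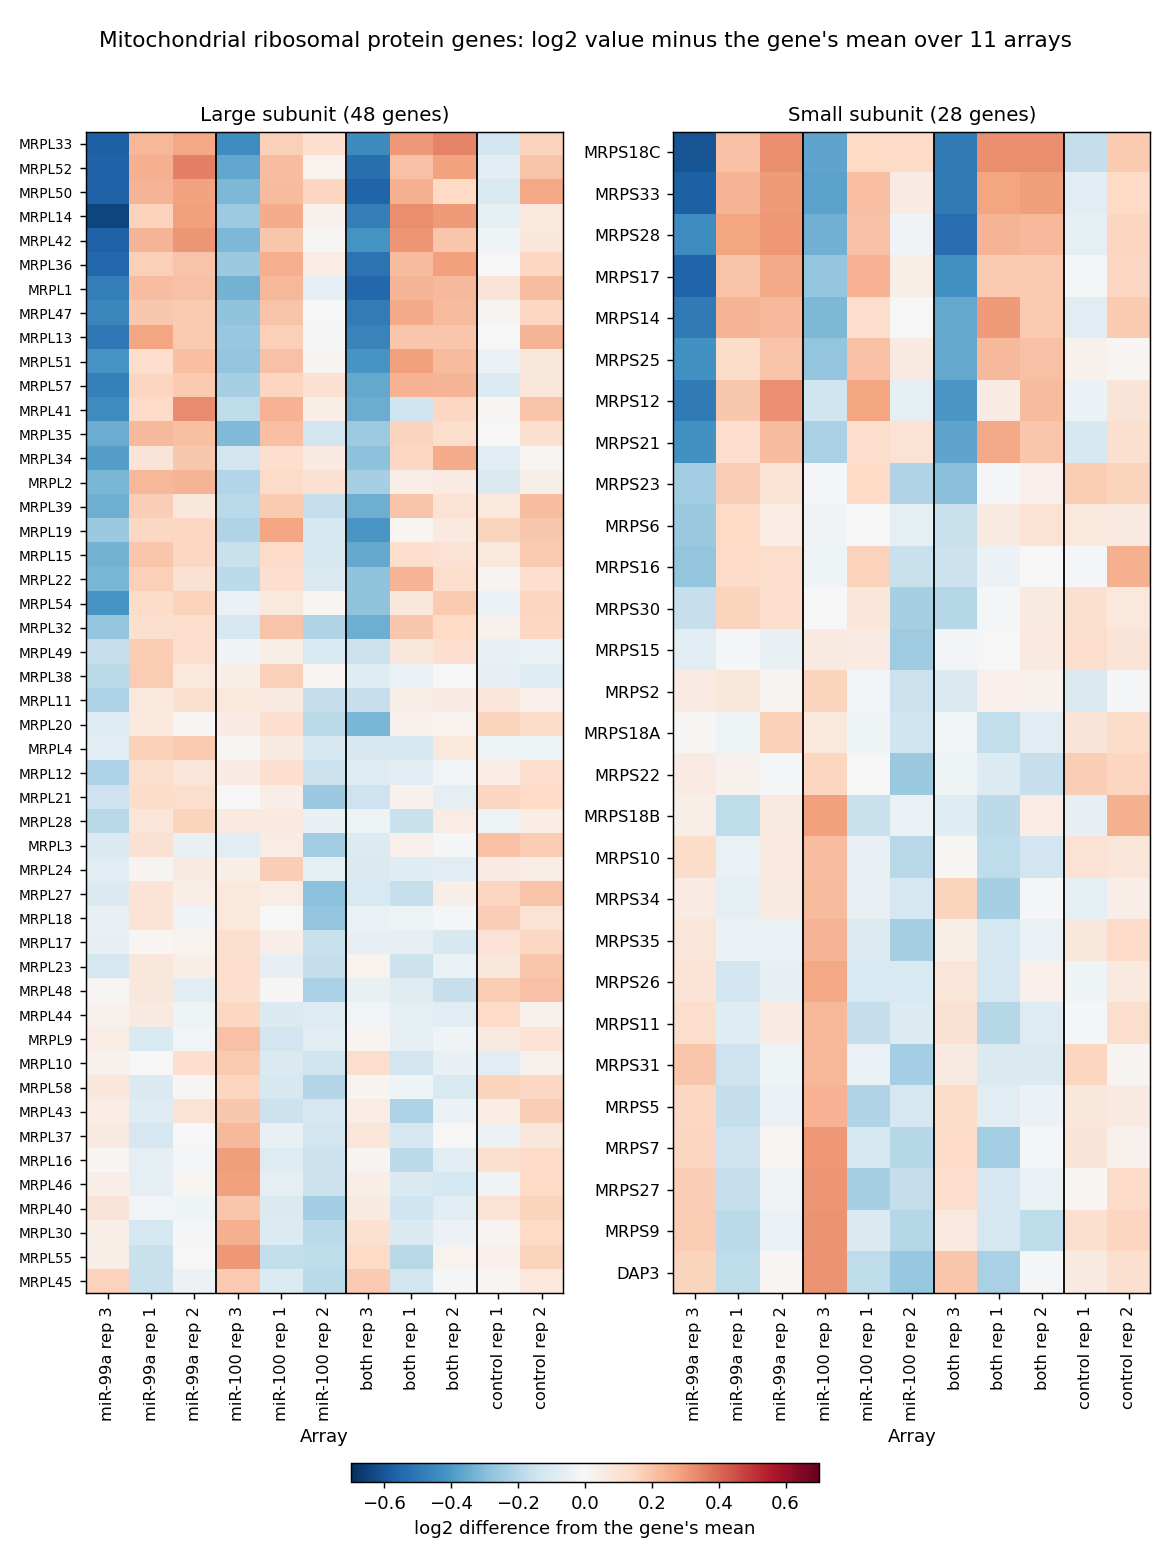
Log2 value minus the gene's mean over 11 arrays for each member (rows, ordered within each subunit by the replicate 3 difference) on each array (columns, by group, with replicate 3 to the left in each treatment), in blue where below and red where above. The replicate 3 columns are blue at the top, down to MRPL33 and MRPS18C with differences of -0.73, and red at the bottom, where MRPL45 and DAP3 have 0.28 and 0.36.

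Over all members, replicate 3 lay below replicates 1 and 2 without overlap for 28, beside 11% of all genes and 18.7% of those with at least the median level, and above them for 18, beside 14.9 and 27.7%. Of the 33 members that were lower, 30 had the same sign within each of the 3 treatments, the exceptions being MRPL49, MRPS23 and MRPS6, and all 20 that were higher did. These signs come from the same arrays that gave the calls, so they are not separate support. The share of all called genes with such signs was not counted. The median large-subunit difference was -0.31 within miR-99a, 0.01 within miR-100 and -0.17 within the combination, and the small-subunit medians were -0.02, 0.20 and -0.04. A test of whether the difference depended on the treatment passed for 0 genes at an adjusted p of 0.05 (lowest 0.566), with 1706 genes and 11 members under an unadjusted p of 0.05. Control replicate 1 lay between the means of replicate 3 and of replicates 1 and 2 for 30 of the 33 lower and 18 of the 20 higher members, and control replicate 2 for 19 and 13. For the lower members the controls lay mostly nearer to replicates 1 and 2, with control replicates 1 and 2 nearer to replicate 3 for only 7 and 1 of 33. For the higher members they lay mostly nearer to replicate 3, for 12 and 18 of 20.

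Members that were lower in replicate 3 had higher signals as a group, with a median level of 10.0 over all arrays, against 9.02 for those that were higher and 9.35 for those that did not pass. Across the 76 members, level and difference had a Pearson correlation of -0.413, as a description over genes that share the same arrays, and over the 9888 genes with at least the median level it was -0.201. Within the large and small subunits it was -0.493 and -0.252. Gene length on the chromosome had a correlation of 0.07 with the difference. The number of members past the threshold was 43 to 54 when any treated array was left out.

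Probe sets of the same gene did not always move together. Of the 143 probe sets of members, 46 were lower and 32 higher in replicate 3 when each was fitted on its own. The share over all probe sets was not counted. Of 38 members with several probe sets, 3 had all of them past the threshold in 1 direction. With the mean of all probe sets of each gene, 30 members were lower and 15 higher, beside 2156 and 2570 of all 19775 genes. For 6 members (MRPL30, MRPL35, MRPL50, MRPS10, MRPS14 and MRPS25), probe sets passed in opposite directions. In MRPS25, 1 probe set with a mean of 8.83 stood at -0.52 ± 0.06 and others with means of 7.72 and 7.19 at 0.33 ± 0.07 and 0.22 ± 0.07. In MRPS10, the brightest probe set stood at 0.21 ± 0.07 and the next at -0.44 ± 0.07 and -0.40 ± 0.07, so the direction given for MRPS10 depends on the probe set. The MRPL30 difference of 0.23 was 0.00 when its 5 probe sets were averaged.

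A technical measure moved with the replicate number, and its part in these differences was not tested. The median of the 15 Bacillus control probe sets ran from 6.72 to 7.51 in replicate 3, against 7.62 to 8.13 in replicates 1 and 2, with control at 7.01 and 8.03. The 3′ minus 5′ difference of ACTB ran from 2.52 to 2.85 in replicate 3, against 2.46 to 3.17 in replicates 1 and 2, and that of GAPDH from 0.562 to 0.715, against 0.53 to 0.63, so both ranges overlapped. The summed level of 15 markers of other lineages was 88.4 to 88.6 in replicate 3, against 87.9 to 89.1.

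Other genes of mitochondrial translation are given beside the same background, 17.1% of all genes higher and 12.2% lower, or 32.6 and 22.1% of those with at least the median level. No difference between these lists was tested. Of 17 measured aminoacyl-tRNA synthetases that charge tRNAs in mitochondria, 12 were higher and 0 lower in replicate 3, among them GARS1 at 0.42 ± 0.07, HARS2 at 0.36 ± 0.07 and KARS1 at 0.34 ± 0.07. GARS1 and KARS1 also serve the cytoplasm. Of 14 measured translation factors and regulators, 7 were higher and 1 lower. The initiation factor MTIF2 stood at 0.58 ± 0.07. LRPPRC, which stabilises mitochondrial messages in a complex with SLIRP, stood at 0.41 ± 0.07, and SLIRP itself at -0.69 ± 0.07.

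Of 27 ribosome assembly factors, 7 were higher and 3 lower in replicate 3. Over all genes 17.1% were higher and 12.2% lower, and over those with at least the median level 32.6 and 22.1%. The lower assembly factors were MALSU1, which takes part in large-subunit assembly, at -0.68 ± 0.07, the helicase DHX30 at -0.53 ± 0.07 and the RNase YBEY at -0.43 ± 0.07. METTL17, a small-subunit assembly factor, stood at 0.40 ± 0.07. Of 9 genes of mitochondrial transcription and genome maintenance, 3 were higher and 3 lower, with the DNA-binding proteins SSBP1 and TFAM at -0.65 ± 0.07 and -0.39 ± 0.07 and the helicase TWNK at 0.35 ± 0.07. Among 3 measured mitoribosomal proteins with other names, CHCHD1 stood at -0.53 ± 0.07, PTCD3 at 0.47 ± 0.07 and GADD45GIP1 at 0.12 ± 0.07 (adjusted p = 0.213). KGD4, the former MRPS36, now placed in the 2-oxoglutarate dehydrogenase complex, stood at -0.83 ± 0.07 (adjusted p = 2.9e-13). With any oligo against control, 0 genes of these lists passed in the main fit.

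Promoters are shown, to set members that were lower in replicate 3 beside members that were higher, for MRPL33 and MRPS18C, which had the smallest p among the lower members of their subunits with exactly 1 promoter in the RefSeq table, and for MRPL45 and MRPS9 among the higher ones. Each run goes from 250 bases before to 30 after the RefSeq start on the plus strand of GRCh38.p14, 5′ to 3′, with the motifs found in capitals. MRPL33 is at chr2:27771469-27771748, MRPS18C at chr4:83455808-83456087, MRPL45 at chr17:38296918-38297197 and MRPS9 at chr2:105037819-105038098.
MRPL33: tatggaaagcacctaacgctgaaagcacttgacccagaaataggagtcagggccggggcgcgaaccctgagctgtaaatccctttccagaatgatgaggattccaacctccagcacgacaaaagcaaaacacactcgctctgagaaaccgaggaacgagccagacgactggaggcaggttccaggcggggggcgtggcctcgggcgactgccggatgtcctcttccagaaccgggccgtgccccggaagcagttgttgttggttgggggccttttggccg
MRPS18C: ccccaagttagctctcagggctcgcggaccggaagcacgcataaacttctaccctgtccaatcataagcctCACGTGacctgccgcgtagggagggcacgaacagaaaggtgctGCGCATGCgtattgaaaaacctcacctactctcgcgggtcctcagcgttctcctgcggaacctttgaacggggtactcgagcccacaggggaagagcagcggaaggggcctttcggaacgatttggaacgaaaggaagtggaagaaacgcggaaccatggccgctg
MRPL45: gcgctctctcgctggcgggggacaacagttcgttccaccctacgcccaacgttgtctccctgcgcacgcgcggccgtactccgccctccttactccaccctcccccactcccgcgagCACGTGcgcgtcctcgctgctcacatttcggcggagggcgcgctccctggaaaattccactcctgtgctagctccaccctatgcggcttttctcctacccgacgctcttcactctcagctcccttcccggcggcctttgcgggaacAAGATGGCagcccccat
MRPS9: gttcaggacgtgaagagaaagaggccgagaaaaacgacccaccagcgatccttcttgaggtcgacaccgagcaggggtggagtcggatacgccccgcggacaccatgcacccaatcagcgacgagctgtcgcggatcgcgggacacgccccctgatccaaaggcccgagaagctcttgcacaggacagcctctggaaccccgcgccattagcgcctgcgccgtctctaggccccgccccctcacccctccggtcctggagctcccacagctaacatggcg
Searches on both strands of the 300 bases from 250 before to 50 after each start used the letters GCGCATGC (NRF1), CCGGAAGT (ETS factors), AAGATGGC (YY1) and CACGTG (E-box), which do not contain one another. MRPS18C held the E-box and NRF1 letters, MRPL45 the E-box and YY1 letters, and MRPL33 and MRPS9 none of them.

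Promoters of 68 members were in the table. The YY1 letters were found in 29.4% of these members, against 3.52% of all 27305 genes with a promoter there, the ETS letters in 16.2%, against 4.95%, the E-box in 13.2%, against 8.77%, and the NRF1 letters in 8.82%, against 3.68%. Of 28 members lower in replicate 3, 10 held the YY1 letters, 3 the ETS letters, 6 the E-box and 4 the NRF1 letters. Of 20 higher members, 5, 2, 2 and 0 did in the same order. Of 20 members that did not pass, 5, 6, 1 and 2 did. No difference between these groups was tested. These matches are descriptions of letters and not of binding. The 27305 genes are more than the 19775 measured, and shares among genes with at least the median level were not counted.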

How the data were processed

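RNA of 11 samples of Reh cells was labelled with Affymetrix one-cycle kits, per the labels' protocols. The authors deposited log2 values, a scale inferred from the range (4.398 to 14.839). The normalization is not given in the sources used here, and the array medians were 5.95 to 5.984. Of 54675 probe sets, 41091 listed with a single gene were kept, 41037 of them with an identifier found in RefSeq (GRCh38.p14), and each gene took the probe set with the highest mean. Group means were fitted with limma 3.58.1 under R 4.3.3 (lmFit and eBayes over all 11 arrays, Benjamini-Hochberg adjustment over 19775 genes, 2-sided, threshold 0.05). Replicate 3 was compared with replicates 1 and 2 in the treated arrays with treatment as a term. On simulated data, the any-oligo comparison recovered 94% of genes changed by a log2 size of 1 and the replicate 3 comparison 96%. The simulated noise was independent between arrays. Member differences against control went no further than -0.29, so these percentages do not tell how many shifts of that size would be found.

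Members and lists were chosen with earlier results of these data known. Named members have the smallest p: against control, 3 per subunit and direction; for replicate 3, 5 lower and 3 higher per subunit; 2 per subunit otherwise. Also named are the 3 highest and 3 lowest signals per subunit, up to 3 genes per other list, DAP3, MRPL3, MRPL12 and the MRPS18 genes; METTL17, MRPL49, MRPS6 and genes whose probe sets disagree were chosen after their values were seen. Not every member the rule names is printed. Members with a bacterial counterpart were assigned by their number in the symbol, except MRPL47, MRPL55 and MRPS28, which were added to them after the values were seen. Same-number arrays of different treatments correlated after removing group means (r 0.168 to 0.816 in 9 of 9 pairs). Same-number control and treated arrays did so at -0.152 to 0.438, and the main fit does not pair them. The 2 control arrays mirror each other once their mean is removed, so this check cannot exclude pairing. Fits with the replicate number as a block are therefore also given. The number of arrays limits the precision.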

Additional observations from a re-analysis of the deposited data

How the results depend on the processing

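The alternatives were quantile normalization, a filter on genes below the median level, the mean of all probe sets, leaving out each array, a replicate block, replicates 1 and 2 alone and a replicate 3 term; fits of each probe set on its own were added after seeing the data. Of the named members' values under them, 1081 kept their direction and side of the threshold, 39 turned in sign, 4 passed the threshold only under the alternative and 3 ceased to pass. With the replicate number as a block, 5, 7, 863 and 507 genes passed for miR-99a, miR-100, the combination and any oligo, and 1 gene each for miR-100 against miR-99a and for the combination against single oligos. Members past the threshold under the block numbered 4 for the combination (MRPL33 at 0.30, MRPL48, MRPS22 and MRPS9) and 2 for any oligo (MRPL48 and MRPS9), and 0 elsewhere. In the treated pairs every same-number correlation was over 0.1, and the block changed no call of a member there.

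With replicates 1 and 2 alone, 290, 198 and 1 genes passed for the combination, any oligo and miR-100 against miR-99a, and the small-subunit medians were -0.18 for miR-100 against control and -0.12 against miR-99a. With a replicate 3 term, 443 and 24 genes passed for the combination and any oligo, with 2 and 0 members. MRPS34 turned to -0.046 (miR-99a, block and term), -0.048 (miR-100, block and term), -0.079 (miR-100, replicates 1 and 2 alone) and -0.063 (any oligo, all 3 settings). MRPS26 turned to -0.077 (block and term) and -0.13 (replicates 1 and 2 alone) and MRPS2 to -0.029 (replicates 1 and 2 alone) with miR-100. With the mean of probe sets, MRPS18C stood at -0.059 for the combination and MRPL30 at -0.0002 for replicate 3. The causes were not tested.

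Leaving out 1 array at a time (a lone control array is assumed to vary like the other groups) gave ranges of -0.031 to 0.083 (miR-99a), -0.079 to 0.093 (miR-100) and -0.047 to 0.066 (any oligo) for MRPS34, -0.13 to 0.25 for MRPS28 (miR-99a), -0.18 to -0.039 for the small-subunit median (miR-100), -0.0001 to 0.12 (miR-100) and -0.038 to 0.24 (the combination) for MRPL34, -0.030 to 0.15 for MRPL2 (miR-100), -0.029 to 0.12 (miR-100) and -0.0036 to 0.092 (the combination) for MRPS2, -0.13 to 0.32 for MRPS18C, -0.089 to 0.23 for MRPS21 (both with the combination), and -0.18 to 0.0073 for MRPS30 (miR-100 against miR-99a).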

Other observations

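Probe sets listed with several genes stood outside the comparisons. The probe set listed for MRPS24 and the read-through gene URGCP-MRPS24 stood at 10.83, 11.11 and 10.89 in replicate 3 of miR-99a, miR-100 and the combination, while control replicates 1 and 2 stood at 11.07 and 11.21. The probe set listed for MRPL53 and CCDC142 stood at 9.13, 9.41 and 9.15 in those arrays, while control stood at 9.44 and 9.64.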
